A study of Bos taurus with 6 samples.

Results

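The 10 genes described here are regulators of the epithelial-mesenchymal transition, chosen by name from the 19163 genes of the count table. They comprise 6 on the mesenchymal side (ZEB1, ZEB2, SNAI1, SNAI2, TWIST1 and TWIST2) and 4 on the epithelial side (ESRP1, ESRP2, GRHL2 and OVOL2). They were matched by symbol in the deposited TPM table and by Entrez gene identifier in the count table, and all 10 were found in both. The RNA came from F7, a bovine embryonic stem cell (bESC) line made from in vitro fertilized embryos of the Holstein Friesian breed. The feeder layers were mouse embryonic fibroblasts, either alive but kept from dividing by mitomycin C (MC-F7) or fixed and killed with methanol (MT-F7), and each group has 3 libraries, with 15 passages given for both. Both groups were kept in a medium with recombinant human FGF and the Wnt pathway inhibitor IWR1. Feeders were reduced before RNA extraction by a short plating on gelatin, from which the floating cells were taken. The paper reports that a smaller share of reads mapped to the bovine genome in MC-F7 than in MT-F7. It proposes that fixed feeders left less feeder cell contamination in the cultures. What feeder RNA added to the counts was not tested here. The medium was changed every day for MC-F7 and every other day for MT-F7, so the effects of the feeder and of the feeding interval cannot be told apart. F7 is 1 line. No source used here ties the 3 libraries of a group to separate cultures, so the p values measure the spread between these libraries, which may be technical.

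In an epithelial-mesenchymal transition, cells give up their junctions and apical-basal polarity and become motile. ZEB, SNAI and TWIST proteins are transcription factors that repress epithelial genes such as CDH1 (E-cadherin), whereas GRHL2 and OVOL2 are transcription factors that keep epithelial genes on or repress ZEB genes, and ESRP1 and ESRP2 are RNA-binding proteins that set epithelial patterns of splicing. Pluripotent stem cells grow as epithelium-like colonies held together by E-cadherin, and a transition of this kind takes place in the embryo at gastrulation.

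The expression of ESRP1, OVOL2, SNAI1 and TWIST2 was reduced in MT-F7 relative to MC-F7, and the expression of ZEB1 was increased. Each side therefore had members with reduced expression, namely 2 of the 3 epithelial regulators that could be tested and 2 of the 6 mesenchymal ones. Over all tested genes 11.3% were lower. The level of ESRP1 was 4.56-fold lower and that of ZEB1 was 1.66-fold higher in MT-F7. SNAI2, TWIST1, ZEB2 and ESRP2 did not pass the test, and GRHL2 had too few counts to be tested.

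Levels are given as counts per 1000000 counts (CPM) after TMM normalization, a scaling of library sizes, as mean ± SD of 3 libraries. The libraries held 21958386 to 24933430 counts. A gene was taken as detected in a library from 3 counts, or 0.120 to 0.137 CPM before TMM scaling, a limit that covers counting error only. The groups were compared with the quasi-likelihood test of edgeR over 13001 genes with Benjamini-Hochberg adjustment, and a gene was called at an adjusted p under 0.05. Log2 fold changes are MT-F7 minus MC-F7, so that positive values are increases in MT-F7. Of the 9 regulators with enough counts to be tested, 5 were called, 1 higher and 4 lower, where 23.2% of all tested genes were called (11.9% higher and 11.3% lower). In the same 5 genes the groups did not overlap, whereas among all tested genes they did not overlap in 40%, with MT-F7 wholly above MC-F7 in 19.9% and wholly below it in 20.1%. With an absolute log2 fold change over 1.5 and an unadjusted p under 0.05 as the threshold, 3 of the 9 passed (TWIST2, ESRP1 and OVOL2), where 6.58% of all tested genes did. The RNA is from a bulk of cells, in which fewer cells that express a gene and less RNA per cell cannot be told apart.

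**Figure D1:**
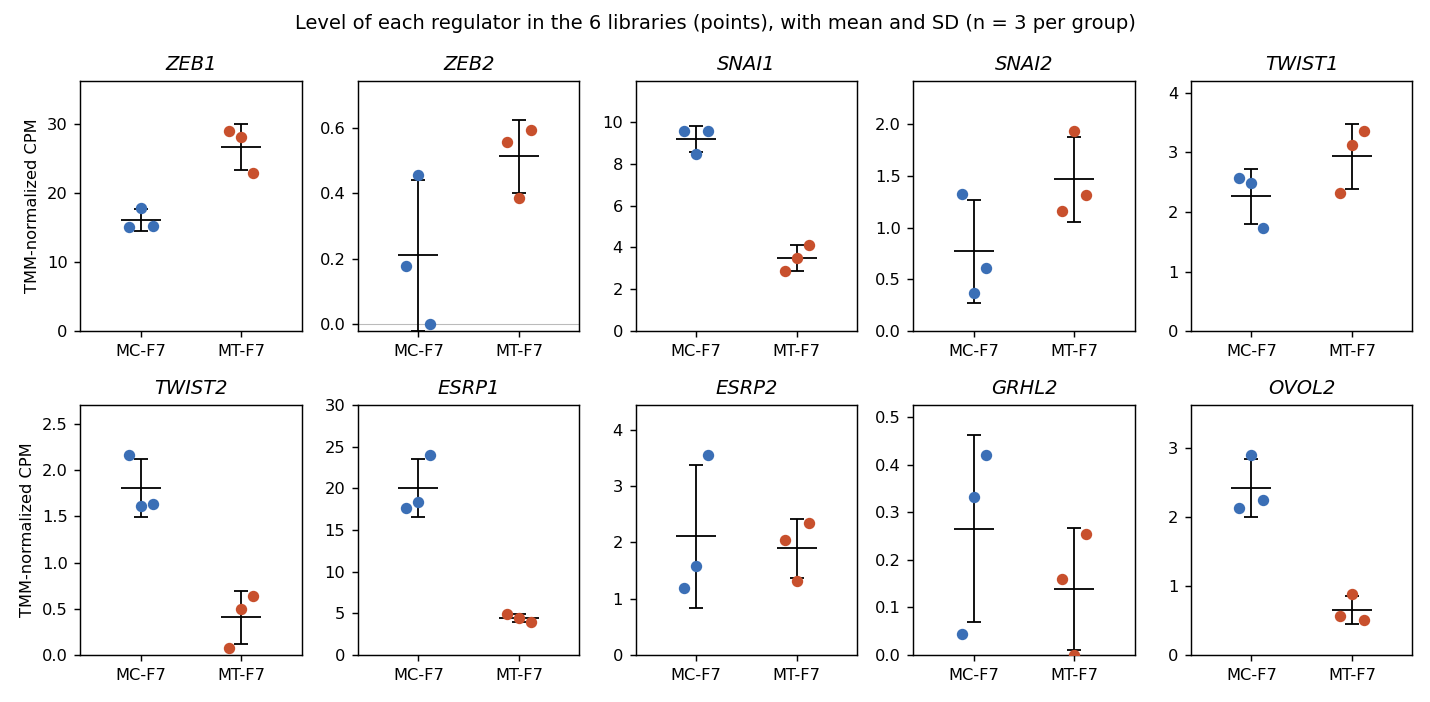
TMM-normalized CPM (vertical axes, a separate scale for each gene) of the 10 regulators in the 3 MC-F7 and 3 MT-F7 libraries, with points for libraries (replicates 1 to 3 from left to right) and bars for mean ± SD. The MT-F7 points lie above all MC-F7 points for ZEB1, and below them for SNAI1, TWIST2, ESRP1 and OVOL2.

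ESRP1 and ESRP2 are paralogs with overlapping roles in epithelial splicing. ESRP1 (Entrez gene 538640) had 17.7, 18.4 and 24.0 CPM in the MC-F7 libraries and 4.86, 4.40 and 3.91 CPM in the MT-F7 libraries. All MT-F7 libraries were far below the lowest MC-F7 library, and the mean fell from 20.0 ± 3.47 to 4.39 ± 0.477 CPM. The log2 fold change of ESRP1 was -2.19 (standard error 0.198, adjusted p = 7.9e-06). ESRP2 (510878) had 1.19, 1.58 and 3.55 CPM in MC-F7 and 2.03, 1.31 and 2.34 CPM in MT-F7. Its groups overlapped, with the highest value in replicate 3 of MC-F7. The log2 fold change of ESRP2 was -0.15 (standard error 0.418, adjusted p = 0.83), with a 95% interval from -1.06 to 0.75. Its direction was not settled, since the log2 fold change was 0.44 without MC-F7 replicate 3 and 0.059 without MT-F7 replicate 2. In the RefSeq gene table ESRP2 overlaps the gene NFATC3, and the sources do not state whether reads were counted by strand, so reads shared with that gene cannot be told apart.

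OVOL2 is a zinc finger repressor of ZEB1, and GRHL2 is a grainyhead-like activator of junction genes. OVOL2 (532761) had 2.12, 2.90 and 2.24 CPM in MC-F7 and 0.558, 0.888 and 0.510 CPM in MT-F7. Every MT-F7 value was below every MC-F7 value. The fitted change of OVOL2 was -1.88 on the log2 scale (standard error 0.375, adjusted p = 0.0032), a 3.69-fold reduction. For GRHL2 (519918) the MC-F7 libraries held 1, 8 and 9 counts, and the MT-F7 libraries held 4, 0 and 6. Both groups thus had libraries under the detection limit of 3 counts. The 0 counts of MT-F7 replicate 2 allow a level of up to 0.120 CPM before TMM scaling. GRHL2 was tested only when all genes with at least 1 count were kept (log2 fold change -0.93, standard error 1.08, adjusted p = 0.60) or when the deposited TPM values were used, and a difference was not detectable at this depth.

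ZEB1 and ZEB2 are zinc finger and homeodomain repressors of CDH1 and of other epithelial genes. ZEB1 (535183) had 15.1, 17.9 and 15.2 CPM in MC-F7 and 29.0, 28.2 and 22.9 CPM in MT-F7. The lowest MT-F7 library, replicate 3, was still above the highest MC-F7 library. The log2 fold change was 0.73 (standard error 0.166, adjusted p = 0.0068), with a 95% interval from 0.37 to 1.09. For ZEB2 (539873) the MC-F7 libraries gave 4, 11 and 0 counts, against 14, 10 and 14 in MT-F7. The groups overlapped, and the 0 counts of MC-F7 replicate 3 allow a level of up to 0.137 CPM before TMM scaling. Its log2 fold change was 1.22 (standard error 0.753, adjusted p = 0.27), and the 95% interval of -0.41 to 2.85 spans decreases and large increases. In the RefSeq gene table ZEB1 overlaps 6 entries, all non-coding or pseudogenes, and GRHL2 overlaps 3, all non-coding. ZEB2 overlaps 1, the protein-coding gene LOC613677. The limit on strand is the same for these genes as for ESRP2.

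SNAI1 (Snail) and SNAI2 (Slug) are zinc finger repressors that bind the E-boxes of the CDH1 promoter. SNAI1 (504492) had 9.55, 8.46 and 9.54 CPM in MC-F7 and 2.87, 3.48 and 4.12 CPM in MT-F7. Its MC-F7 libraries varied least among the 10 genes (coefficient of variation 6.85%), and all MT-F7 libraries lay far below them. The log2 fold change was -1.40 (standard error 0.216, adjusted p = 5.5e-04), a 2.63-fold reduction. SNAI2 (520631) had 1.33, 0.373 and 0.608 CPM in MC-F7 and 1.16, 1.93 and 1.32 CPM in MT-F7. The groups overlapped because MC-F7 replicate 1, with 30 counts against 9 and 13 in replicates 2 and 3, reached the level of MT-F7. The log2 fold change of SNAI2 was 0.93 (standard error 0.479, adjusted p = 0.18). Without MC-F7 replicate 1 it was 1.58 and passed (adjusted p = 0.044), so the call for SNAI2 rested on that library.

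TWIST1 and TWIST2 are basic helix-loop-helix factors of mesoderm, neural crest and skeletal precursors. TWIST2 (540060) was counted 49, 39 and 35 times in the MC-F7 libraries, but 2, 13 and 15 times in the MT-F7 libraries. The groups did not overlap, and MT-F7 replicate 1 was below the detection limit of 3 counts. The mean level was 1.81 ± 0.312 CPM in MC-F7 against 0.406 ± 0.291 CPM in MT-F7. This was a change of -2.15 on the log2 scale (standard error 0.534, adjusted p = 0.011). TWIST1 (782170) had 2.57, 2.49 and 1.73 CPM in MC-F7 and 2.31, 3.13 and 3.35 CPM in MT-F7, with overlapping groups. Its log2 fold change was 0.37 (standard error 0.294, adjusted p = 0.40), with a 95% interval from -0.26 to 1.01.

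**Figure D2:**
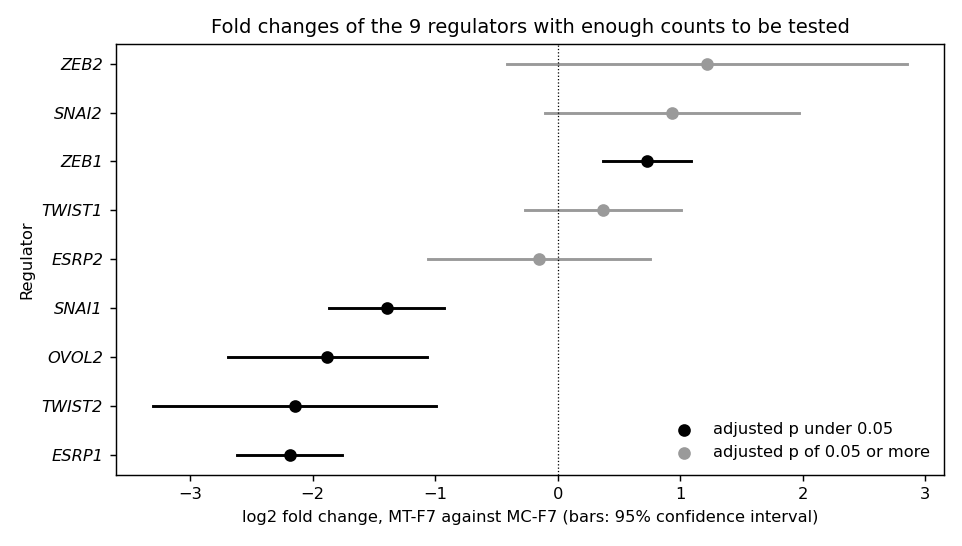
Log2 fold changes of MT-F7 against MC-F7 (horizontal axis) for the 9 regulators tested (vertical axis), with bars for the 95% confidence interval and black for an adjusted p under 0.05. The intervals of ZEB1, SNAI1, OVOL2, TWIST2 and ESRP1 do not reach 0, and those of ZEB2, SNAI2, TWIST1 and ESRP2 do.

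The makeup of each paralog pair was computed in every library, as another view of the same counts that gave the fold changes above. The deposited TPM values were used for this, because they are per gene length. For each of the 10 genes, TPM divided by count did not vary, beyond rounding, across the 6 libraries. SNAI1 made up 84.9, 94.6 and 92.4% of the SNAI pair in the MC-F7 libraries, but 65.9, 58.4 and 70.9% in MT-F7. TWIST1 made up 52.8, 59.3 and 50.02% of the TWIST pair in the MC-F7 libraries, against 96.5, 85.5 and 83.3% in MT-F7. ESRP1 made up 91.6, 89.6 and 83.3% of the ESRP pair in the MC-F7 libraries, compared to 63.7, 71.1 and 55.2% in MT-F7. In these 3 pairs the groups did not overlap, and the mean share moved by -25.6 percentage points for SNAI1, 34.4 for TWIST1 and -24.8 for ESRP1. Each gave p = 0.1 in a two-sided exact permutation test, the smallest p that 3 libraries against 3 allow. ZEB1 made up 92.4 to 96.4% of the ZEB pair in 5 libraries and 100% in MC-F7 replicate 3, where ZEB2 had no counts, and the groups overlapped (exact permutation p = 0.4). Over the 4 pairs tested, the adjusted p of the first 3 was 0.133.

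**Figure D3:**
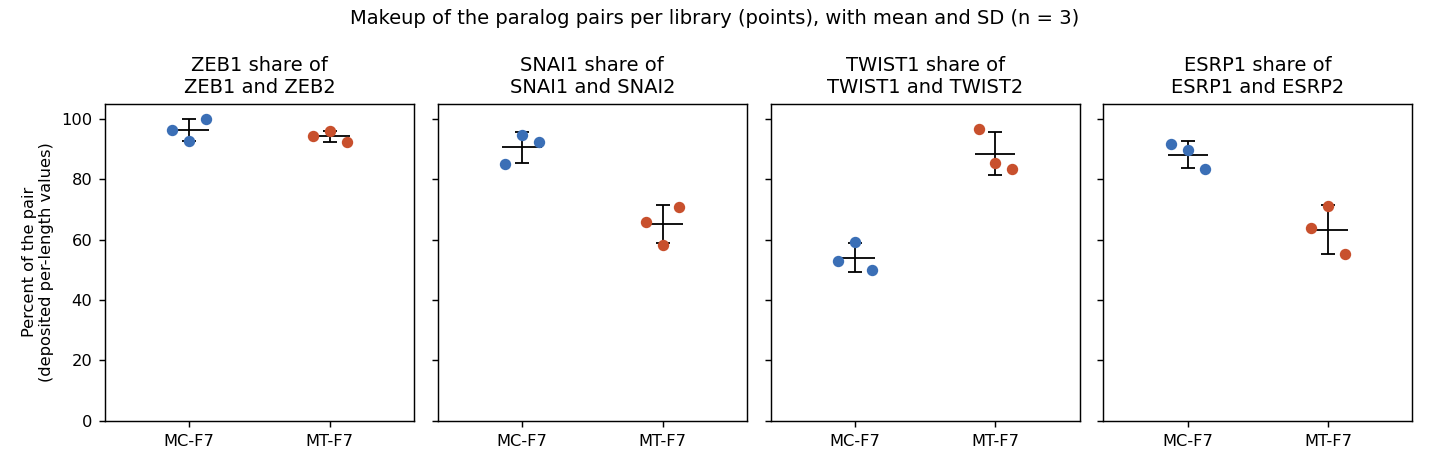
Percent of each paralog pair (vertical axis, from the deposited TPM values per gene length) made up by ZEB1, SNAI1, TWIST1 and ESRP1 in the 3 MC-F7 and 3 MT-F7 libraries (points), with bars for mean ± SD. The MT-F7 points lie below the MC-F7 points for SNAI1 and ESRP1, above them for TWIST1, and overlap them for ZEB1.

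The order of the 10 genes by level per gene length was different in the groups. In MC-F7 ESRP1 was at the top with a deposited TPM of 1.15 ± 0.147, above SNAI1 with 0.742 ± 0.0247 and ZEB1 with 0.628 ± 0.0975. The libraries of SNAI1 and ZEB1 overlapped in MC-F7, whereas ESRP1 lay above SNAI1, and ZEB1 above TWIST1 (0.320 ± 0.0790), in every library. Below TWIST1 came OVOL2, TWIST2, ESRP2, SNAI2, ZEB2 and GRHL2, and each overlapped the next. In MT-F7 ZEB1 was at the top with 1.14 ± 0.187, followed by TWIST1 with 0.451 ± 0.0790, SNAI1 with 0.308 ± 0.0460 and ESRP1 with 0.279 ± 0.0396. ZEB1 lay above TWIST1, and TWIST1 above SNAI1, in every MT-F7 library, while SNAI1 and ESRP1 overlapped. ESRP1 lay above SNAI2, and the other neighbours in the order (SNAI2, ESRP2, OVOL2, ZEB2, TWIST2 and GRHL2) overlapped. ESRP1 exceeded 68.1% of the 21357 genes of that table in MC-F7 and 51.5% in MT-F7, while ZEB1 exceeded 60.8% and 66.6%. Summed over the 4 epithelial regulators the deposited TPM was 1.64 ± 0.25 in MC-F7 and 0.542 ± 0.0337 in MT-F7. Summed over the 6 mesenchymal regulators it was 2.07 ± 0.225 and 2.20 ± 0.209, with overlapping libraries. The deposited TPM still holds library size. In normalized CPM, which is not per gene length, the mesenchymal sum was 28.8 to 31.3 in MC-F7 and 32.9 to 37.6 in MT-F7, without overlap. Among single tested genes, 19.9% had MT-F7 wholly above MC-F7. ZEB1 was the largest part of this sum, with a mean of 16.1 CPM in MC-F7 and 26.7 CPM in MT-F7. SNAI1 and TWIST2 were lower in MT-F7, so the mesenchymal sum does not stand for a shared rise of its genes. The epithelial sum was 21.1 to 30.3 CPM in MC-F7 and 6.60 to 7.61 CPM in MT-F7.

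Other transcription factors of the same families or with known links to them moved in both directions. Of 20 such genes 12 were tested, and 5 were called higher and 1 lower, where 11.9% of all tested genes were higher and 11.3% lower. The median log2 fold change was 0.56, compared to -0.0026 over all 13001 tested genes. GRHL3, a grainyhead-like relative of GRHL2, rose from counts of 1, 3 and 9 in MC-F7 to counts of 121, 127 and 77 in MT-F7 (log2 fold change 4.46, standard error 0.508, adjusted p = 5.2e-05). ID proteins bind basic helix-loop-helix factors and keep them off DNA. ID4 rose from 21.9 ± 2.89 to 129 ± 28.3 CPM and ID2 from 14.8 ± 2.17 to 92.5 ± 25.9 CPM, changes of 2.56 (adjusted p = 2.4e-06) and 2.64 (adjusted p = 4.2e-06) on the log2 scale. ID1 also rose (log2 fold change 0.84, adjusted p = 0.0054). The remaining called genes, named after their values were seen, were ID3 (0.63, adjusted p = 0.020) and OVOL1, a relative of OVOL2, which fell from 3.49 ± 0.574 to 1.87 ± 0.236 CPM (log2 fold change -0.90, adjusted p = 0.033). ID3 and OVOL1 did not pass without MC-F7 replicate 2 or 3 or without MT-F7 replicate 1 or 2 (adjusted p up to 0.11 for ID3 and 0.15 for OVOL1).

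Of 16 co-repressors and chromatin partners through which ZEB and SNAI proteins act, all tested, 2 were higher and 1 was lower, a share near the 23.2% called over all tested genes. The median log2 fold change was 0.098. LOXL2, a lysyl oxidase-like enzyme that binds SNAI1, rose from 39.1 ± 3.13 to 75.6 ± 1.73 CPM (log2 fold change 0.95, adjusted p = 4.4e-04). EZH2, which methylates histone H3 in Polycomb repression, rose from 106 ± 17.4 to 213 ± 14.4 CPM (1.01, adjusted p = 6.5e-04). SUV39H1, another histone H3 methyltransferase, fell (-0.55, adjusted p = 0.020), but did not pass without MC-F7 replicate 2 or MT-F7 replicate 1 or 2 (adjusted p up to 0.091).

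Genes for the turnover and localisation of SNAI and TWIST proteins were tested in 13 of 13 cases, and 1 was higher and 2 were lower, again near the 23.2% of all tested genes. USP9X, a deubiquitinase, fell from 104 ± 16.5 to 51.1 ± 4.54 CPM (log2 fold change -1.02, adjusted p = 6.6e-04). CSNK1A1, the kinase CK1 alpha, fell from 26.2 ± 2.11 to 14.7 ± 0.642 CPM (-0.84, adjusted p = 0.0020). FBXL14, part of a ubiquitin ligase, rose (0.78, adjusted p = 0.034), but did not pass without MC-F7 replicate 1 or 3 or MT-F7 replicate 1 or 2 (adjusted p up to 0.13). The median of the 13 was 0.012.

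Splicing regulators that act beside or against the ESRP proteins were tested in 11 of 12 cases, and 2 were called, also near the 23.2% of all tested genes. RBFOX2, which favours mesenchymal exons, rose from 17.8 ± 1.37 to 31.7 ± 4.14 CPM (log2 fold change 0.83, adjusted p = 0.0029). RBM47, which favours epithelial exons, fell from 9.12 ± 1.73 to 5.10 ± 0.685 CPM (-0.84, adjusted p = 0.014), and did not pass without MC-F7 replicate 1 (adjusted p = 0.052). The median of the 11 was 0.11. Of 10 genes known to be spliced under ESRP control, all tested, 2 were called, a share near the 23.2% of all tested genes. Both were lower in MT-F7, namely CTNND1, which encodes p120 catenin (-0.87, adjusted p = 0.0031), and LSR, a protein of junctions where 3 cells meet (-0.66, adjusted p = 0.014), which did not pass without MC-F7 replicate 2 or MT-F7 replicate 1 or 2 (adjusted p up to 0.078). The median of the 10 was 0.11. Counts per gene do not separate isoforms, so the splicing itself was not measured. The microRNA genes of the ZEB loop that are in the table (MIR200A, MIR200B, MIR200C, MIR141, MIR429, MIR205 and MIR34A) had 0 counts in all 6 libraries, and mature microRNAs are not captured by a library of this kind.

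**Figure D4:**
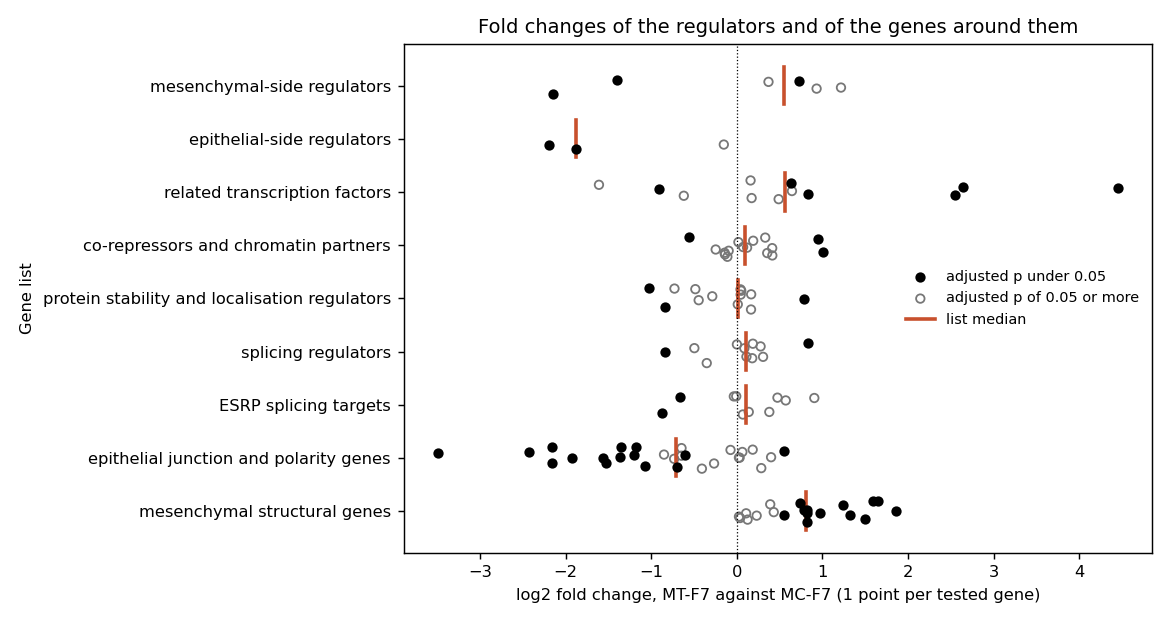
Log2 fold changes of MT-F7 against MC-F7 (horizontal axis) for every tested gene of the 9 gene lists (vertical axis), with filled points for an adjusted p under 0.05 and coloured lines for list medians. Of the epithelial junction and polarity genes 14 of 28 were called lower, and of the mesenchymal structural genes 13 of 20 were called higher.

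The structural genes that mark the epithelial and mesenchymal states, many of them targets of these regulators, were read next. Of 30 epithelial junction, polarity and keratin genes 28 were tested, and 14 were lower and 1 was higher in MT-F7, where 11.3% of all tested genes were lower and 11.9% higher. The median log2 fold change was -0.72. CLDN7, a claudin of tight junctions, fell from 77.7 ± 2.96 to 14.5 ± 0.931 CPM (-2.42, adjusted p = 7.6e-07). KRT18, a keratin of simple epithelia, fell from 859 ± 167 to 193 ± 12.5 CPM (-2.15, adjusted p = 4.6e-06). CDH1 fell from 371 ± 49.2 to 98.1 ± 9.17 CPM (-1.92, adjusted p = 5.2e-06), and SPINT1, a protease inhibitor of epithelial surfaces, from 13.3 ± 1.51 to 2.97 ± 0.402 CPM (-2.16, adjusted p = 1.3e-05). The gene that was higher, named after its values were seen, was TJP1, which encodes the junction protein ZO-1 (0.55, adjusted p = 0.026). TJP1 did not pass without MC-F7 replicate 2 or 3 or MT-F7 replicate 2 (adjusted p up to 0.12). The count of lower genes was 12 to 15 when 1 library was left out.

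Of 20 mesenchymal structural genes, all tested, 13 were called, each of them higher in MT-F7, where 11.9% of all tested genes were higher. The median log2 fold change was 0.80. ACTA2, smooth muscle actin, rose from 85.3 ± 16.4 to 309 ± 71.2 CPM (1.86, adjusted p = 3.5e-05). COL3A1, a fibrillar collagen, rose from 14.6 ± 1.99 to 45.8 ± 10.3 CPM (1.65, adjusted p = 8.1e-05). CDH2, N-cadherin, rose from 107 ± 23.5 to 302 ± 44.9 CPM (1.5, adjusted p = 1.4e-04). VIM, the intermediate filament vimentin, rose from 1314 ± 217 to 2326 ± 672 CPM (0.82, adjusted p = 0.017). VIM did not pass without replicate 2 of MC-F7 or of MT-F7 (adjusted p up to 0.092), and passed in 7 of the 10 other settings.

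Markers of other cell types were read in the same libraries, and their part in the results was not tested. For comparison, 23.2% of all tested genes were called, 11.9% higher and 11.3% lower. Of 10 fibroblast markers 9 were tested, and COL3A1, POSTN and PDGFRB were called, all higher in MT-F7. Their summed level was 220 to 296 CPM in MC-F7 and 338 to 392 CPM in MT-F7, and FAP had 0, 9 and 7 counts in MC-F7 and 0 counts in all MT-F7 libraries. Of the 10 markers 4 are also among the mesenchymal structural genes. Of the neural progenitor markers 8 of 10 were in the table and 7 were tested, and LHX2, PAX6, RAX and SIX3 were higher (summed level 594 to 682 CPM in MC-F7 and 1224 to 1344 CPM in MT-F7). Of 8 tested neural crest markers PAX3 and SOX9 were higher and FOXD3 was lower, and the summed level of the 9 in the table was 16.3 to 17.7 CPM in MC-F7 and 15.5 to 20.5 CPM in MT-F7. Both mesendoderm markers that could be tested, FOXA2 and EOMES, were lower, and GATA4 and CER1 had 0 counts in all libraries (summed level of 9 genes 10.7 to 11.98 and 4.06 to 4.46 CPM). Of 5 tested trophectoderm markers 4 were lower, 3 of which are keratins that are also in the epithelial list, and CDX2 had 0 counts in all libraries (summed level 2111 to 3219 and 858 to 997 CPM). Of the pluripotent cell markers 6 of 10 were in the table, all with counts in both groups, and POU5F1, NANOG, DPPA4 and LIN28A were lower in MT-F7 (summed level 950 to 1579 and 592 to 651 CPM). Of these markers POSTN, PDGFRB, SOX9, EOMES, GATA2 and LIN28A did not pass in every fit with 1 library left out, with adjusted p up to 0.11.

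The genes whose profile over the 6 libraries was most like that of a called regulator were found by the root mean square difference of log2 CPM after each gene's mean was taken away. With 6 libraries in 2 groups such likeness rests mostly on the group difference, and it is given as a description. The nearest to ESRP1 were DHRS3, GRB7 and KRT80 (0.148 to 0.159 log2 units), and the nearest to OVOL2 were MATN2, ADD2 and NPL (0.149 to 0.160). The nearest to ZEB1 were PLSCR2, LOC522334 and EFNB3 (0.0562 to 0.0569), and near SNAI1 were RUNDC3A and LMCD1 (0.109 to 0.111). The nearest to TWIST2 were LOC100336971 and the pair ARHGDIG and PDIA2, which had identical counts (0.206 to 0.272). Of the regulators that were not called, TWIST1 was nearest to PIAS3, HYAL3 and SEC61B (0.0832 to 0.104), and ESRP2 to SLITRK5, RDH10 and SLC6A4 (0.0964 to 0.159). SNAI2 was nearest to SCN4A, CDYL2 and DNAAF4 (0.207 to 0.224), and near ZEB2 were SMPDL3A and RNF165 (0.273 to 0.308). No other regulator of the 10 was among these nearest genes.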

How the data were processed

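RNA-seq of 6 libraries of F7 cells was used, 3 MC-F7 and 3 MT-F7. The authors used HISAT2 2.0.5 with an Ensembl reference and featureCounts 1.5.0-p3, and deposited a table of raw counts by Entrez identifier. The build and the strand setting are not given in the sources used here. The authors also deposited values called TPM, which are per gene length but add up to 155595 to 165666 per library, so library size is still in them. Symbols came from the RefSeq gene table (ARS-UCD2.0, names and neighbours only), which matched 19074 of 19163 identifiers.

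The filterByExpr function of edgeR (count of at least 10, total of at least 15) chose the genes, which were tested in edgeR 4.0.16 under R 4.3.3 with TMM factors and the quasi-likelihood F test, two-sided, with Benjamini-Hochberg adjustment over all 13001 tested genes. Standard errors were the log2 fold change divided by the square root of F. Alternatives were RLE factors, library size only, DESeq2 1.42.0, other filters, a replicate block, leaving out 1 library at a time, and limma 3.58.1 on log2(TPM + 1) and log2(TPM + 0.1). The steps were tested on simulated data. From each list the 4 called genes with the smallest p were named, with CDH1, VIM, CDH2 and the cell type markers, and the 3 genes nearest to each tested regulator. Of the genes this rule names, 3 are not reported here. The genes and lists were chosen with earlier results of these data known. Promoter and protein sequences were not used here.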

Additional observations from a re-analysis of the deposited data

How the results depend on the processing

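ZEB1, SNAI1, TWIST2, ESRP1 and OVOL2 kept their direction and their call in each of the 6 fits that left out 1 library and under each other setting in which they were tested. Without 1 library the log2 fold change was 0.66 to 0.82 for ZEB1, -1.54 to -1.28 for SNAI1, -2.61 to -1.67 for TWIST2, -2.28 to -2.04 for ESRP1 and -2.17 to -1.73 for OVOL2. That of SNAI2 was 0.60 to 1.58, past the threshold in 1 of the 6 fits, and that of ESRP2 was -0.43 to 0.44. ESRP2 was also above 0 in limma, with 0.00080 on log2(TPM + 1), 0.035 on log2(TPM + 0.1) and 0.033 on log2(TPM + 0.1) after the values were rescaled to 1000000 per library, a setting chosen after the data had been seen. GRHL2, with a log2 ratio of mean CPM of -0.94, was -0.017 on log2(TPM + 1) and -0.14 on log2(TPM + 0.1), since a pseudocount shrinks low values.

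The number of regulators called higher was 1 to 2, and of those called lower 4, without 1 library. With an absolute log2 fold change over 1.5 and an unadjusted p under 0.05, 0 were higher and 3 lower. No regulator had a mean deposited TPM of at least 1 over the 6 libraries, so that filter gave no value. The deposited values add up to far less than 1000000 per library, so this limit is stricter than on a full TPM scale. Same-numbered libraries had correlated deviations of 0.134, 0.0445 and 0.417, and 2 of the 6 libraries correlated best with their own number, so the numbers were not taken as pairs. With the replicate number as a block the same 5 regulators passed, with 0.73 for ZEB1, -1.40 for SNAI1, -2.22 for TWIST2, -2.18 for ESRP1 and -1.90 for OVOL2, and 4674 genes in all were called against 3016. Without MC-F7 replicate 2 the count over all genes was 1914. Of the list genes named above, ID3, OVOL1, SUV39H1, FBXL14, RBM47, CTNND1, LSR, TJP1 and VIM did not pass in at least 1 limma fit. The same held for the markers POSTN, PDGFRB, SOX9, EOMES, GATA2, LIN28A and POU5F1, and for the keratin KRT19 of the trophectoderm and epithelial lists. Over all settings the count of higher partner genes was 2 to 5 and of lower stability genes 2 to 4, of higher ESRP targets 0 to 3 (2 without MC-F7 replicate 3) and of lower epithelial genes 8 to 16. Counts of the lists that were 1 or 2 in the report fell to 0 under at least 1 setting for lower related factors, lower partners, higher stability genes, lower splicing regulators, lower ESRP targets and higher epithelial genes, and the cause was not tested. GRHL2, ZEB2, SNAI2 and TWIST2 had at most 50 counts in every library, so counting error is a larger part of their values.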
